A study of Mus musculus with 6 samples.

Results

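Autophagy and lysosome control genes are described here by the ATF4 peaks listed at them. The group is a set list of 43 mouse genes, and every row of the 4 annotated ATF4 peak lists whose gene name is 1 of these 43 was taken, at any distance, with the peaks within 5 kb of a transcription start site (TSS) set apart. In all, 19 of the 43 genes were named for at least 1 peak, and they carried 42 of the 17462 listed peaks.

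ATF4 was immunoprecipitated from primary mouse embryonic fibroblasts (MEFs) of 2 genotypes, wild type (WT) and GCN2-/- (GCN2 KO), both labelled as strain 129S6/SvEvTac. The cells stayed for 24 h in complete DMEM (+Leu) or in DMEM lacking leucine (-Leu), which gave a leucine-fed and a leucine-deprived group of each genotype. Chromatin from 2 experiments was combined before sequencing, which left 1 library per condition, no replicate error and no test between conditions. The lists give 4850 peaks for WT +Leu and 6374 for WT -Leu, and 3566 and 2672 for the same media in GCN2 KO cells, with no sequencing depth, and peak lists hold no expression values with which the fibroblast label could be checked.

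GCN2 is a kinase that senses uncharged tRNA when an amino acid is missing, and the translational response that it sets off raises ATF4, a transcription factor of the basic leucine zipper family that binds composite C/EBP-ATF sites. Autophagy proceeds in steps that different members serve: a kinase complex starts it, a lipid kinase marks the membrane, lipid is supplied to the growing phagophore, enzymes conjugate Atg8 proteins to it, receptors bring cargo, and the lysosome degrades the content. Tfeb, Tfe3 and Mitf are related transcription factors of lysosomal genes.

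Each peak is a window of 150 bases to either side of the summit, and carries the authors' Peak Score, a whole number with no stated scale. The median score over all peaks was 29 in the list of leucine-fed GCN2 KO cells and 30 in the other 3. Scores were not normalized between libraries, so each is given with its percentile within its own list. A gene named for no peak had none assigned to it that passed a false discovery rate of 0.05 in that library. A peak named for another gene can still lie in or near it, and weaker binding there is not measured.

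Close to a start site, ATF4 peaks were listed at 2 of the 43 genes, both in leucine-deprived WT cells. These were Sqstm1, encoding the cargo receptor p62, and Atg5, a subunit of the complex that conjugates Atg8 proteins to lipid. They make up 4.65% of the members (95% Wilson interval 1.28 to 15.5%), beside 4.4% of 21900 protein-coding genes with such a peak in the same list. None of the 43 had a peak that close in leucine-fed WT cells, where 3.03% of protein-coding genes had 1, or in GCN2 KO cells, where 2.26% had 1 with leucine and 1.61% without it. The upper end of the 95% Wilson interval for 0 of 43 was 8.20%, and the limit that a count of 0 allows, taken as 3 of 43, was 6.98%, both above each of those shares. Interval and limit cover counting error only.

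At any distance, WT cells had 11 members named for a peak with leucine (25.6%, interval 14.9 to 40.2%) and 10 without it (23.3%, 13.2 to 37.7%), beside 14.6% and 18.3% of protein-coding genes. GCN2 KO cells had 7 with leucine (16.3%, lower bound 8.12%) and 6 without it (14.0%, 6.56 to 27.3%), beside 11.1% and 8.56%. The background share fell within the members' interval in all lists but WT +Leu, where it lay just under the lower bound. These intervals cover counting error only, and no difference from the background was tested. Over all lists together, 44.2% of the members and 34.4% of protein-coding genes were named for a peak. Gene length moved with this count. The 19 members with a peak had a median length of 44.7 kb and the 24 without a peak 24.6 kb, and among protein-coding genes the medians were 27.9 kb for the 7535 with a listed peak and 13.2 kb for the 14365 without. The part of gene length in the members' share was not tested.

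**Figure D1:**
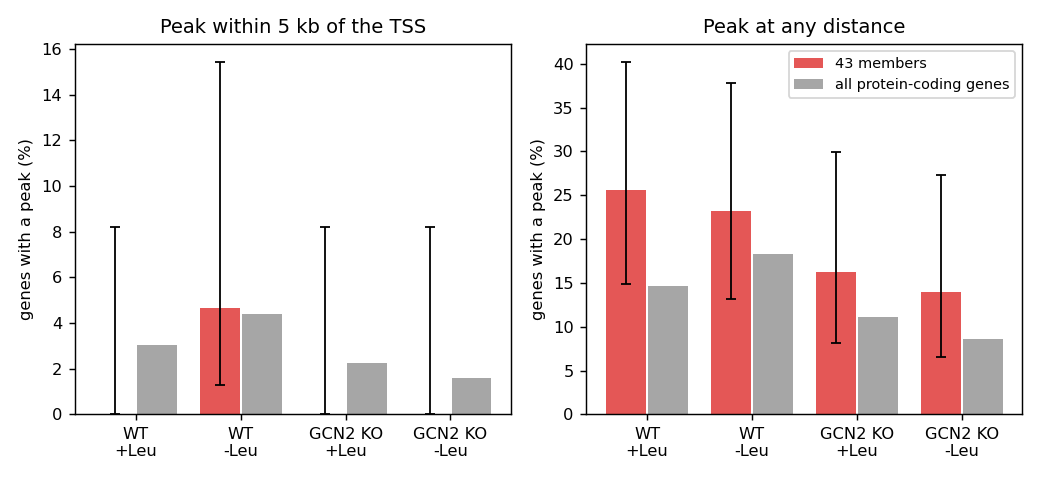
Share of genes with an ATF4 peak (y axis, percent) in each of the 4 lists, within 5 kb of the TSS (left) and at any distance (right), for the 43 members (red, with 95% Wilson intervals that cover counting error only) and all 21900 protein-coding genes (grey). Within 5 kb, a member share above 0 appears in WT -Leu alone, at 4.65% beside 4.4%.

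The strongest peak lay upstream of Sqstm1, whose product p62 binds ubiquitinated cargo and the Atg8 proteins on the phagophore. In WT -Leu its Peak Score was 545, at position chr11:50211975-50212275 (mm10), with its center -1305 bp from the TSS in intergenic sequence that the annotation assigns to a SINE repeat. That score stood at rank 75 of the 6374 WT -Leu peaks, a percentile of 98.8, and Sqstm1 ranked 36th of the 1111 genes named within 5 kb in that list, whose median highest score was 31. No peak of the other 3 lists came close to this site. The nearest was 144577 bp away in leucine-fed WT cells, and in GCN2 KO cells 52917 bp away with leucine and 15772 bp without it. Few peaks of any gene recurred where lists were compared. Within 300 bp, 308 of the 4850 WT +Leu peaks recurred in WT -Leu (6.35%). Of all WT -Leu peaks, 1.27% recurred in GCN2 KO -Leu. These shares cover peaks of all scores.

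Known ATF4 target genes give a scale for this value. In WT -Leu the highest score within 5 kb was 2515 at Chac1, a glutathione-degrading enzyme, 1787 at Asns, the asparagine synthetase, 1569 at Atf5, 736 at Ddit3, encoding CHOP, 646 at Sesn2, encoding a leucine sensor upstream of mTORC1, and 540 at Trib3, a pseudokinase. Sqstm1 therefore lay between Sesn2 and Trib3. Unlike Sqstm1, all 6 were also listed that close in WT +Leu, with scores of 1499 at Chac1, 808 at Atf5, 746 at Asns, 173 at Ddit3, 101 at Trib3 and 54 at Sesn2. In GCN2 KO cells with leucine, Chac1 (391), Atf5 (228), Asns (184), Trib3 (58) and Ddit3 (40) had a peak that close, and Sesn2 and Sqstm1 had none. In GCN2 KO cells without leucine, Atf5 (205), Chac1 (184) and Asns (41) kept a listed peak, and Ddit3, Trib3, Sesn2 and Sqstm1 had none that close.

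The WT -Leu list held another peak at Sqstm1, at chr11:50200604-50200904 with a score of 79 (percentile 87.9, rank 766). Its center lay 10066 bp downstream of the TSS and 602 bp inside the 3′ end of the gene, where the annotation gives the transcription termination site of Mrnip, the neighbouring gene. Another peak was named for Sqstm1 in GCN2 KO -Leu only, with a score of 20 (percentile 9.51), 14467 bp from the TSS in an intron of Mrnip. WT +Leu and GCN2 KO +Leu listed none.

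The sequences under the 5 stretches that follow are shown because they hold the recognition motifs found in the highest-scoring peaks at the cargo receptors and at Mitf. They are printed 5′ to 3′ on the plus strand of GRCm38, the assembly that mm10 names, and capitals mark the motif. The motifs searched on both strands were TGATGCAA, the composite C/EBP-ATF site, TGATGNAA, which includes the former, TGACTCA, the AP-1 site, and TGACGTCA, the cAMP response element. The stretches lie at chr11:50212065-50212185, chr11:50200734-50200763, chr6:97871398-97871508, chr7:138919400-138919480 and chr2:5095057-5095157, in the order printed.
Sqstm1 upstream, capitals TGACTCA read on the minus strand: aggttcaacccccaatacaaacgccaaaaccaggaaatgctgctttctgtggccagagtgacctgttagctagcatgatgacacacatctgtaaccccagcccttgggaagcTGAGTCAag
Sqstm1 3′ end, capitals TGATGCAA: ctgctctacgTGATGCAActacaagacaaa
Mitf intron 1, capitals TGATGCAA: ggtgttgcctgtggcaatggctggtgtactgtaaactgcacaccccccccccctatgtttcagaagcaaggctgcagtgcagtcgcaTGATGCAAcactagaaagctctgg
Bnip3 upstream, capitals TGATGNAA: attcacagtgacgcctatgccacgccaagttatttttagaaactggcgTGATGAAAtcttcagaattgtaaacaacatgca
Optn upstream, capitals TGATGNAA read on the minus strand: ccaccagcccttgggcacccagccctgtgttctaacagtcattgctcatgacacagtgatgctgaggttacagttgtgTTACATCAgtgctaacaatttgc

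The upstream Sqstm1 window, with the highest score of any member peak, held no TGATGNAA. It held TGACTCA 52 bp from its center, a motif present in 8.69% of all WT -Leu windows. Of the 75 WT -Leu windows with a score of 545 or more, 80% held TGATGNAA and 28% held TGACTCA. In the window at the 3′ end of Sqstm1, TGATGCAA lay -10 bp from the center.

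Among the other cargo receptors, Bnip3 and Optn each had a WT -Leu peak with a percentile above 91, and Tax1bp1 a GCN2 KO +Leu peak with a percentile of 90.6. Bnip3 encodes a mitochondrial outer membrane protein that recruits Atg8 proteins to mitochondria. Its peak, at chr7:138919290-138919590, had a score of 126 (percentile 92.4, rank 482) and lay -9934 bp from the TSS, with TGATGNAA 8 bp from its center. Optn encodes optineurin, a receptor for damaged mitochondria and bacteria. The higher of its 2 peaks, at chr2:5094927-5095227, had a score of 108 (percentile 91.1, rank 565), -31139 bp from the TSS, and TGATGNAA lay 58 bp from the center. The other Optn peak had a score of 25 in an intron, 20886 bp from the TSS. Neither gene was named in WT +Leu, beside 14.6% of protein-coding genes. Nor was either named in the GCN2 KO lists, beside 11.1% with leucine and 8.56% without it. The nearest WT +Leu peak was 27871 bp from the Bnip3 peak and 95576 bp from the stronger Optn peak. Few peaks of any gene recurred, as 308 of the 4850 WT +Leu peaks had a WT -Leu peak within 300 bp.

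Tax1bp1, an ubiquitin-binding receptor, was named for a GCN2 KO +Leu peak of score 43 in an intron 49898 bp from its TSS, and for a WT -Leu peak of score 23 lying 96750 bp away in an intron of Jazf1. Nbr1, a receptor related to p62, and Bnip3l had no peak in any list. By list, 4 of the 6 cargo receptors were named in WT -Leu and none in WT +Leu, beside 18.3% and 14.6% of protein-coding genes, and 1 in each GCN2 KO list, beside 11.1% with leucine and 8.56% without it. With 6 genes and 1 library per list, these counts were not tested.

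**Figure D2:**
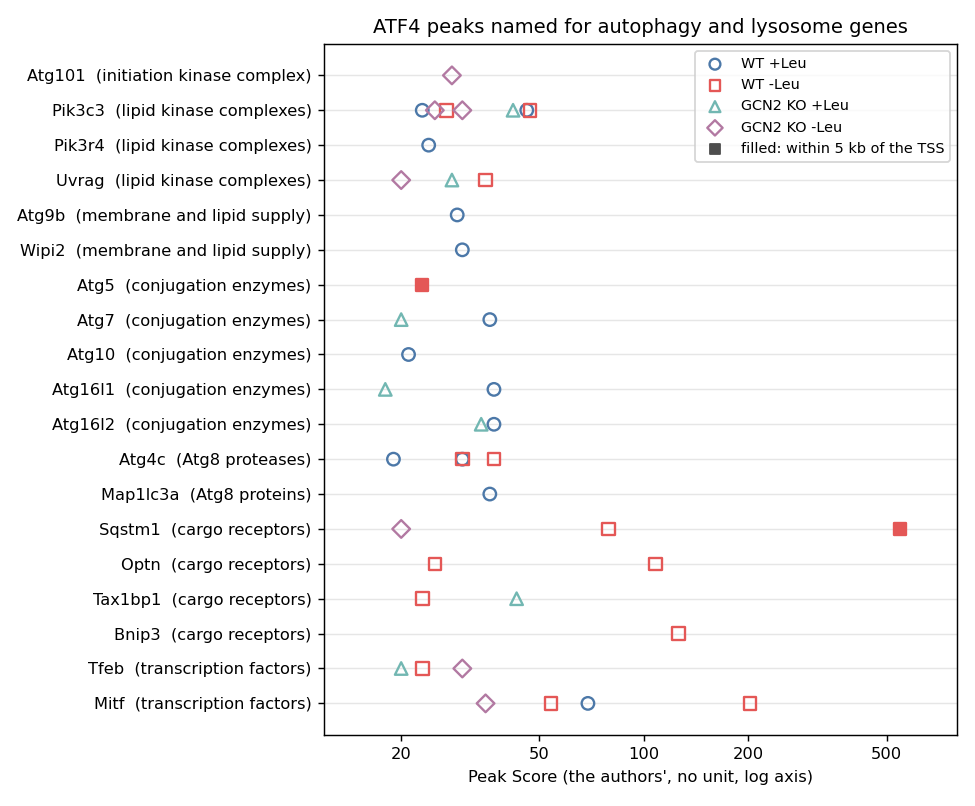
Peak Score (x axis, no unit, log scale) of every peak named for the 19 members that had any, 1 row per gene with its step in autophagy. Color and shape give the list, and filled symbols the 2 peaks within 5 kb of the TSS. The scores of 100 or more belong to Sqstm1, Mitf, Bnip3 and Optn, all in WT -Leu.

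Of the transcription factors, Mitf carried the only member site that appeared in more than 1 list. The site lay in intron 1 of its long transcript, 64.4 kb from the 5′ end of the gene and -58409 bp from the start site to which the WT -Leu list assigned it. It scored 69 in WT +Leu (chr6:97871277-97871577, percentile 96.9, rank 152) and 202 in WT -Leu (chr6:97871258-97871558, percentile 95.3, rank 302), with centers 19 bp apart. The ratio of the scores was 2.93, but the percentile changed by -1.59 without leucine. Over the 308 sites common to both WT lists, the median ratio was 2.36 and 252 scored higher without leucine. The window held TGATGCAA, 77 bp from the WT -Leu center and 58 bp from the WT +Leu center.

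Mitf was named for further peaks near its 3′ end. They scored 54 in WT -Leu, in exon 10 (percentile 81.6), and 35 in GCN2 KO -Leu, in intron 8 (percentile 73.4), with centers 3534 bp apart. GCN2 KO +Leu listed no peak for Mitf. Tfeb had low scores at 3 separate places, 23 in leucine-deprived WT cells (22341 bp from the TSS), and in GCN2 KO cells 20 with leucine (7146 bp) and 30 without it (12034 bp). Tfe3 had no peak.

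**Figure D3:**
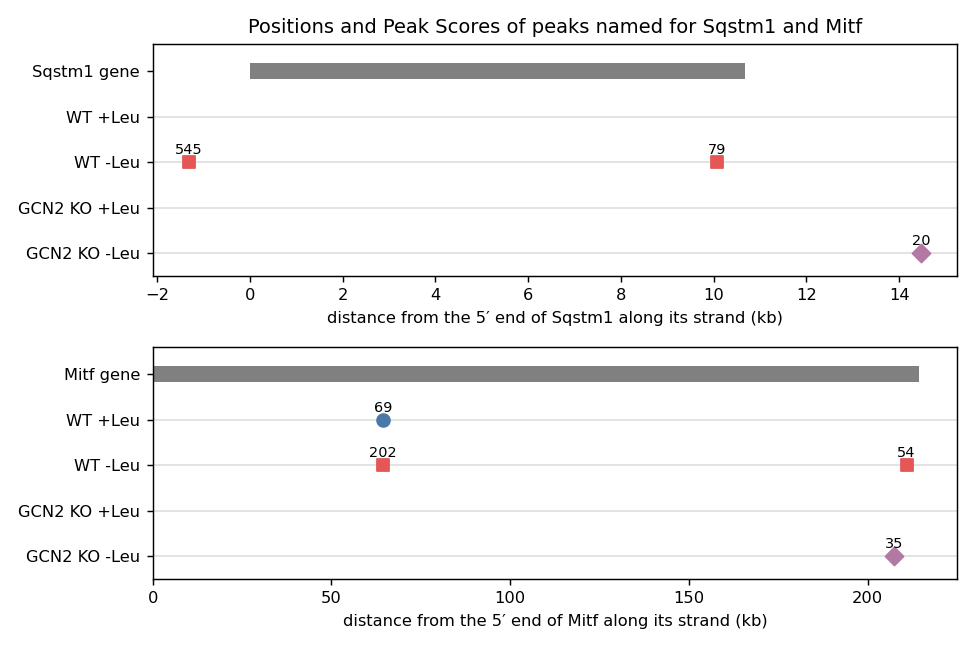
Positions of the peaks named for Sqstm1 (top) and Mitf (bottom) along each gene's strand, in kb from its 5′ end (x axis), with 1 line per list and the Peak Score above each symbol. The grey bar is the gene. Sqstm1 has its score of 545 just upstream in WT -Leu, and Mitf has the pair of 69 and 202 at 64.4 kb in the WT lists.

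Among the conjugation enzymes, 5 of 7 genes were named over all lists, beside 34.4% of protein-coding genes. Their scores were no higher than 37. Atg5 was the only 1 with a peak near its start site, at chr10:44265281-44265581 in WT -Leu, -2927 bp from the TSS. Its score was 23, a percentile of 24.3, and Atg5 ranked 784th of the 1111 genes with a peak within 5 kb, in contrast to the 36th place of Sqstm1. Atg16l1, which brings the conjugation complex to the membrane, had a score of 37 in an intron in WT +Leu (10363 bp) and 18 in GCN2 KO +Leu (-44485 bp). Its paralog Atg16l2 had 37 in WT +Leu, in the 3′ UTR of Fchsd2 (18580 bp), and 34 in GCN2 KO +Leu (6205 bp). Atg7, the E1-like activating enzyme, had intronic peaks of 36 in WT +Leu and 20 in GCN2 KO +Leu, and Atg10, the E2-like enzyme for Atg12, an intronic peak of 21 in WT +Leu. Counted by list, 4 of the enzymes were named in fed and 1 in deprived WT cells, beside 14.6% and 18.3% of protein-coding genes, and 3 in fed and none in deprived GCN2 KO cells, beside 11.1% and 8.56%. These counts of 7 genes were not tested either. Atg3 and Atg12 had no peak.

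Of the 5 genes for the substrates of that reaction, 1 was named in any list, beside 34.4% of protein-coding genes. Map1lc3a, encoding an LC3 protein, had a score of 36 in WT +Leu, 10315 bp from its TSS in an intron of Pigu. Map1lc3b, Gabarap, Gabarapl1 and Gabarapl2 were named for no peak. Of the proteases that process these proteins, Atg4c was named for 4 peaks, scoring 19 and 30 in WT +Leu and 37 and 30 in WT -Leu. All 4 lay in intergenic sequence, 145906 to 179774 bp from the TSS, beyond the 3′ end of the gene. Atg4b and Atg4d had none, so 1 of 3 proteases was named. These counts of 5 and 3 genes were not tested.

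At the earlier steps of the pathway, the peaks named for members scored 47 or lower and none lay within 5 kb of a TSS. The initiation kinase complex, with Ulk1, Ulk2, Rb1cc1, Atg13 and Atg101, had 1 of 5 genes named, beside 34.4% of protein-coding genes over all lists. The only peak named for a member was that of Atg101 in GCN2 KO -Leu, with a score of 28 at -6445 bp. The lipid kinase complexes, with 3 of 6 genes named beside the same 34.4%, accounted for 11 peaks. Of these, 7 belonged to Pik3c3, the catalytic subunit, and were 42600 to 513567 bp from its TSS, scoring 46 and 23 in fed and 27 and 47 in deprived WT cells, and 42 in fed and 25 and 30 in deprived GCN2 KO cells. The scores of Uvrag, a subunit of the endosomal complex, were 35 in deprived WT cells, 28 in fed and 20 in deprived GCN2 KO cells, and that of Pik3r4, the regulatory subunit, was 24 in WT +Leu. Becn1, Atg14 and Ambra1 had no peak. These step counts were not tested.

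In the group that supplies membrane and lipid, Atg9b scored 29, in an exon of Nos3, and Wipi2, a reader of the lipid mark, scored 30 in its own intron, both in WT +Leu. Atg9a, Atg2a, Atg2b and Wipi1 were named for no peak, so 2 of 6 genes were named, beside 34.4% of protein-coding genes over all lists. Neither of the lysosome membrane proteins, Lamp1 and Lamp2, was named in any list, and 2 genes are too few to set beside that share.

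**Figure D4:**
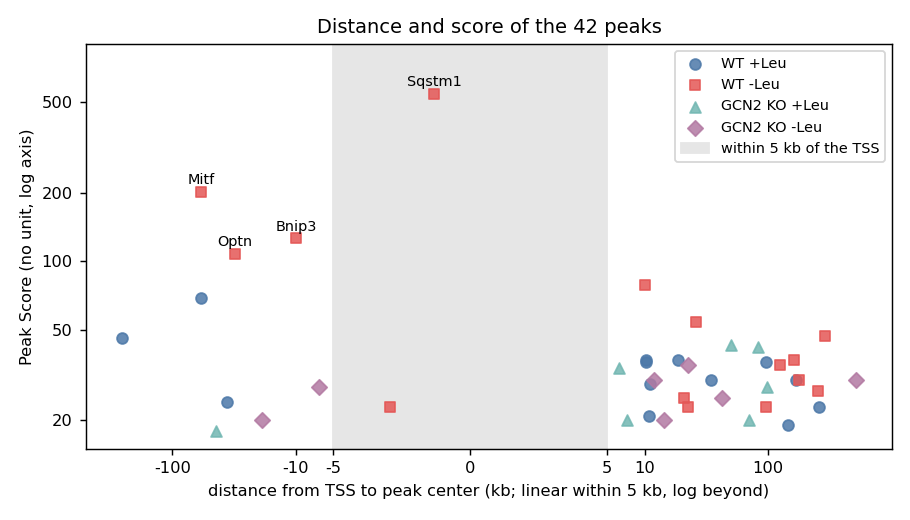
Peak Score (y axis, no unit, log scale) against the distance from the TSS to the peak center (x axis, kb, linear within 5 kb and logarithmic beyond) for the 42 member peaks, colored by list, with the region within 5 kb shaded. The shaded region holds 2 peaks, scoring 545 and 23, and the labelled peaks are the highest of Sqstm1, Mitf, Bnip3 and Optn.

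By distance, 2 of the 42 peaks were within 5 kb of the TSS, 23 between 5 and 50 kb and 17 beyond 50 kb. The first peaks outside the 5 kb limit were those of Atg16l2 (6205 bp), Atg101 (-6445 bp), Tfeb (7146 bp) and Bnip3 (-9934 bp), all within 10 kb. The median distance was 35.5 kb for member peaks and 25.3 kb for all 17462. By annotation, 20 member peaks were in introns (47.6%, beside 44.6% of all peaks) and 17 in intergenic sequence (40.5%, beside 41.8%). A repeat was annotated for 11 (26.2%, beside 22.9%). By position, 17 of the 42 member peaks had their center inside the member itself, and the annotation assigned 8 to a transcript of another gene, so a name in the lists marks the nearest start site and not the gene that holds the peak.

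Scores of member peaks lay near those of the lists, other than the upper part of those in WT -Leu. In WT cells the lowest, median and highest member scores were 19, 30 and 69 with leucine and 23, 37 and 545 without it, at median percentiles of 56.1 and 62.1. In GCN2 KO cells they were 18, 28 and 43 with leucine and 20, 28 and 35 without it, at 42.8 and 44.8. Scores of at least 50 belonged to 6 of 15 member peaks in WT -Leu, where 1274 of 6374 peaks had them, and to 1 of 13 in WT +Leu, beside 7.69% of all. None of the 7 in either GCN2 KO list did, beside 4.88% with leucine and 4.90% without.

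Apart from Mitf, no member peak recurred between lists within 300 bp. Of the 13 WT +Leu member peaks, 1 was also in WT -Leu, where 308 of all 4850 peaks were (6.35%). Of the 7 GCN2 KO +Leu member peaks, none was in GCN2 KO -Leu, beside 2.75% of all peaks. Between genotypes, none of 13 recurred with leucine, beside 1.92%, and none of 15 without it, beside 1.27%.

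Composite motifs were counted in the member peaks of each list. TGATGCAA within 50 bp of the center was present in 1 of 15 member peaks in WT -Leu (6.95% of all), in none of 13 in WT +Leu (2.71%), and in none of the 7 in either GCN2 KO list (1.07% of all with leucine and 1.09% without it). Anywhere in the window, TGATGNAA was found in 4 of the 15 in WT -Leu (15.9% of all) and 1 of the 13 in WT +Leu (7.77%), all at Sqstm1, Mitf, Bnip3 and Optn, and in none of the 7 in either GCN2 KO list (4.59% and 4.55% of all). At those shares, 7 peaks are too few to show a difference. Of the 6 WT -Leu member peaks with a score of 50 or more, 4 held TGATGNAA, beside 50.9% of all peaks of that strength. TGACTCA was present at the Sqstm1 upstream peak and at the WT -Leu peak of Tax1bp1, 2 of the 15 in that list, beside 8.69% of all. TGACGTCA was in no member peak, beside 0.165% of all windows in WT +Leu and 0.330% in WT -Leu. In both GCN2 KO lists its share was 0.226%. At such shares, its absence from 42 peaks shows no difference. RefSeq promoters of 250 bases before to 50 after the start (GRCm38) numbered 44, at 36 of the 43 members, and 32851 in all. TGATGNAA was in none of the 44, beside 3.97% of all promoters. TGACGTCA was in 3 of the 44, those of Atg16l2, Atg5 and Mitf, beside 1.79%. These matches describe letters in the windows searched and not binding.

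Because the lists name only the nearest start site, peaks named for another gene were also searched. With any peak within 5 kb of a curated RefSeq transcript start counted, 3 members had 1 in WT -Leu (6.98%) and none in the other lists, beside 5.5% of 21000 genes in WT -Leu and 3.84% in WT +Leu, and 2.71% with and 1.99% without leucine in GCN2 KO cells. The added gene was Atg9a, the scramblase of the vesicles that seed the phagophore, with a score of 70 (percentile 86.4) at chr1:75195587-75195887, -3727 bp from its start and named for Ankzf1. The peaks that follow lay farther out and were picked after their values were seen. Ulk1, the initiating kinase, held peaks of 58 in WT -Leu, in exon 19, and 24 in WT +Leu, in intron 10, both named for Pus1. Map1lc3b had a WT -Leu peak of 62 at -6627 bp, named for Fbxo31, and Atg2b, a lipid transfer protein, held peaks of 52 in WT +Leu, 24 in fed and 30 in deprived GCN2 KO cells, named for Bdkrb1. Further peaks in the GCN2 KO lists were 41 inside Atg7 (percentile 88.0) and 26 near Tfeb with leucine, and 36 inside Atg9a (percentile 79.0) and 27 near Atg2a without it. None of these windows held TGATGNAA, TGACTCA or TGACGTCA.

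Wider lists of the pathway were read against the same backgrounds within 5 kb, 3.03% in WT +Leu, 4.4% in WT -Leu and, with and without leucine in GCN2 KO cells, 2.26% and 1.61%. Of 72 lysosomal genes, such a peak was listed for 2 in fed (2.78%) and 3 in deprived WT cells (4.17%), and for none in fed and 1 in deprived GCN2 KO cells (1.39%). They were Clcn7 (37) and Npc2 (29), then Gaa (38), Ctsz (38) and Sgsh (22), and in the last group Neu1 (25), which encode a chloride transporter, a cholesterol carrier and the hydrolases acid glucosidase, cathepsin Z, sulfamidase and sialidase. Of 46 further autophagy genes, 2 had such a peak, both in WT -Leu (4.35%). None of these shares exceeded its background. These were Plekhm1 (27), an adaptor of autophagosome fusion, -218 bp from its TSS, and Tecpr1 (19), a tethering protein, 30 bp from its TSS. No score within 5 kb in either wider list exceeded 38.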

How the data were processed

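ATF4 ChIP-seq libraries of WT and GCN2 KO MEFs were analysed as the 4 annotated peak lists deposited, 1 per condition. The authors aligned reads to mm10 with BWA 0.7.12, called peaks with MACS2 2.1.0 (no model, false discovery rate 0.05) against input DNA and annotated the summit with 150 bases to either side with HOMER 4.7. The deposited score is the peak caller's, on a scale not given in the sources used here. The authors' lists also hold GC content as a fraction and the signed distance, in bp, to the closest TSS. Headers of the -Leu lists name the +Leu input as control, and the 2 input libraries were not analysed here.

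Genes were matched by symbol and gene ID, with equal results. Peaks were common when centers were 300 bp or less apart. Motifs were read from GRCm38 after the listed GC of all 17408 peaks on assembled chromosomes was found equal to it. Background was 21900 protein-coding genes. Steps were tested on simulated data. Python 3.11.15, pandas 2.3.3, pysam 0.24.0 and samtools 1.23.1 were used. Depth is unknown, and intervals (95% Wilson) cover counting error. Members and lists were chosen with earlier results of these data known. The rule named every member with a peak within 5 kb, the 10 highest-scoring members with farther peaks only, up to 10 genes of the wider lists within 5 kb, and 6 known targets. Other members were added so that each is accounted for. Alternatives were score, TSS window, overlap, motif and matching settings.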

Additional observations from a re-analysis of the deposited data

How the results depend on the processing

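Of 56 counts under alternative settings, 45 stayed within 1.5 times the count reported and 11 moved. The count of 2 members within 5 kb in WT -Leu was 1 with scores of 30 or more and 1 among the strongest 2672 peaks, and 0 with a 1 kb window. A 10 kb window gave 2 with leucine and 1 without it in GCN2 KO cells. At any distance, scores of 30 or more left 3 members with leucine and 3 without it in GCN2 KO cells, and the strongest 2672 peaks 4 in GCN2 KO +Leu. For these score, rank and window settings no share of all genes was taken, so the counts have no background beside them. TGATGCAA anywhere in the window was in 1 member peak in WT +Leu and 2 in WT -Leu, and any base at position 6 gave 2 in WT -Leu. Against the 8863 genes named in any list, the background within 5 kb in WT -Leu was 12.5%, to be read beside 2 of the 19 members named in any list. The count of peaks near curated transcript starts was added after seeing the data. No paired analysis was possible because each condition had 1 library. Without replicates or depth, no difference between lists has an error.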

Other observations

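Some genes of the wider lists had high-scoring peaks farther than 5 kb from their start sites. They were picked after their values were seen. Trp53inp1, which encodes an Atg8-binding protein induced by p53, had a WT -Leu peak of score 863 (rank 39 of 6374, percentile 99.4), -8571 bp from its TSS, with TGATGNAA 13 bp from the center. The nearest WT +Leu peak was 344518 bp away, and 6.35% of all WT +Leu peaks had a WT -Leu peak within 300 bp. Atp6ap2, an accessory subunit of the proton pump of lysosomes, had a WT -Leu peak of 409 (percentile 98.1) at -22950 bp with TGATGNAA at the center.

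Wdfy3, encoding a scaffold for aggregate clearance, had peaks with centers 18 bp apart in intron 3, scoring 246 in WT -Leu (percentile 96.3) and 91 in GCN2 KO +Leu (percentile 99.1).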
